A study of Mus musculus with 2 samples.

Results

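Among the cells collected from aged mouse bone and marrow was a small set of erythroid cells with little RNA and much globin, and these late low-RNA erythroid cells are described here. They were selected on measured values: a cell was taken when it had fewer than 10000 unique molecular identifiers (UMIs, tags put on captured RNA molecules), at least 10% of them from the adult globin genes Hba-a1, Hba-a2, Hbb-bs and Hbb-bt, and fewer than 2000 CPM (counts scaled to a total of 1000000) of the stromal gene Cxcl12. By this rule 179 of 9573 kept cells were chosen, or 1.87% (exact 95% binomial interval 1.61 to 2.16), out of 11056 deposited barcodes. They were set beside 514 erythroid cells of at least 10000 UMIs with at least 6% globin and the same Cxcl12 limit, called deep globin-rich cells below. Since UMI number and globin share defined both sets, neither measure is a finding.

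Femurs and tibias of 3 male INK-ATTAC mice, each aged 24 months, supplied the cells. The cells were combined as 1 sample and run across 2 lanes, numbered as replicates 1 and 2 in the sample titles. INK-ATTAC is a transgene in which a p16 promoter fragment drives an inducible caspase 8, so every cell in both sets carried it, and the study's text calls the mice untreated. Red cells had been lysed, cells with lineage antigens, Ter-119 of erythroid cells among them, removed by magnetic beads, and live CD45- cells sorted, so the erythroid cells are those that passed these steps. The lanes held 116827845 and 120556381 UMIs and shared 10928 of the 11056 barcodes, 177 of the 179 late low-RNA cells included. Counts of a barcode differed between lanes by less than sampling noise (squared differences over summed counts 0.567 in the late low-RNA cells, where independent draws would give about 1), so the lanes were summed and counted as 1 sample. A molecule may have been counted in both lanes, so a summed UMI number is not a number of molecules. With 1 pooled sample there is no test between animals, and every interval below covers counting error only.

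Red cell precursors divide a few times while they fill with globin, then leave the cell cycle, condense the nucleus, expel it and clear their mitochondria and ribosomes as reticulocytes. Transcription falls over this course while stable RNAs such as those of globin persist. Genes for nuclear condensation, ubiquitin-dependent protein removal and mitophagy are used late, and genes for DNA replication and ribosome assembly early.

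The late low-RNA cells held between 503 and 9427 UMIs, with a median of 1756 over both lanes, and a median of 496 genes. The deep globin-rich cells had medians of 36471.5 UMIs and 3871 genes. Globin made up a median of 15.7% of UMIs in the late low-RNA cells, with a range of 10.1 to 87.8, and 8.01% in the deep cells. Just inside the globin limit, the 21 cells at 10 to 11% globin had a median of 1600 UMIs, and 20 of them had at least 3 UMIs of Slfn14, Xpo7 and Tmcc2 together. Just outside it, the 24 low-depth cells at 9 to 10% globin had a median of 1606 UMIs, and 15 of them had at least 3 such UMIs. Ribosomal protein genes took a median of 8.93% of non-globin UMIs per cell in the 24 cells and 7.04% in the 21. Near the UMI limit, of the 19 chosen cells with 5000 UMIs or more, 8 had at least 3 such UMIs. The mitochondrial limit removed 1 barcode that met the other limits, and the gene minimum and the Cxcl12 limit removed 0.

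**Figure D1:**
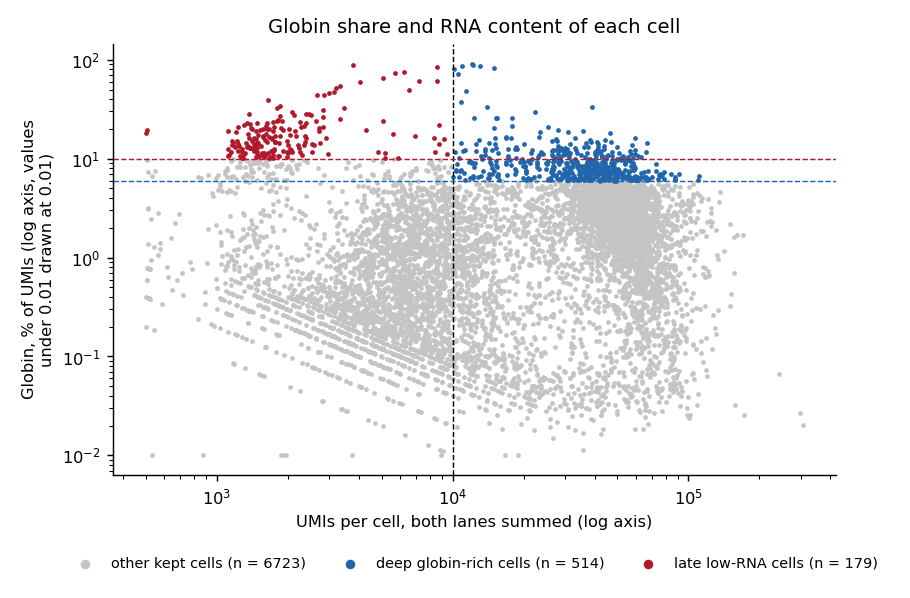
Each point is a kept cell below the Cxcl12 limit, with its UMIs over both lanes on the x axis and the globin share of those UMIs on the y axis (both log axes); dashed lines are the limits of 10000 UMIs, 10% and 6% globin. Most of the 179 late low-RNA cells lie in a cloud around their median of 1756 UMIs, apart from the 514 deep globin-rich cells around 36471.5 UMIs, and other cells of similar UMI number lie below the 10% line.

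The markers given for these cells were Slfn14, Xpo7, Tmcc2 and Alas2, and all of them were present. They had been picked with earlier results of these data known, so their presence is no independent support for the label. In GRCm38 the genes lie at chr11:83275110-83286726 (Slfn14, minus strand), chr14:70654246-70766628 (Xpo7, minus), chr1:132356315-132391281 (Tmcc2, minus) and chrX:150547375-150570638 (Alas2, plus). Slfn14, an endoribonuclease that acts on ribosome-bound RNA, gave 743 (lane 1) and 733 (lane 2) UMIs summed over the 179 cells, and 41 and 42 over the 514 deep cells. Its level was 4521 CPM of the summed non-globin UMIs (4201 to 4859) against 4.84 (3.48 to 6.56). Xpo7, a nuclear export receptor that erythroblasts need for nuclear condensation, had 1188 and 1182 UMIs in the late low-RNA cells and 72 and 57 in the deep cells. That was 7259 CPM (6852 to 7685) against 7.53 (5.80 to 9.60). Both lanes read the same cells, so their near-equal counts in each set say nothing of repeatability. The levels of the sets were orders of magnitude apart. Tmcc2, a membrane protein of the endoplasmic reticulum, stood at 9581 CPM against 30.0, with 1502 and 1626 UMIs in the late low-RNA cells. Alas2, the erythroid enzyme of the first step of heme synthesis, stood at 1596 CPM (1408 to 1802) against 285 (274 to 297), the smallest ratio of the 4, with a log2 ratio of 2.48. Of 8 general erythroid markers, Slc4a1 and Klf1 among them, 8 were detected, 5 at least 2-fold higher than in the deep cells and 2 at least 2-fold lower (26% and 44% of all compared genes were), with a median log2 ratio of 1.24.

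Most of the 179 cells carried these RNAs. A UMI of Slfn14 was found in 156 cells (87.2%, exact interval 81.3 to 91.7), of Xpo7 in 161, of Tmcc2 in 165 and of Alas2 in 138. In stromal cells above the Cxcl12 limit, which should lack Slfn14, 0.603% of 2157 cells had a UMI of it at a median of 4982 UMIs per cell, against a median of 1756 in the late low-RNA cells. For Xpo7, which is not restricted to erythroid cells, the stromal share was 14.0%. Thinning each cell to 1000 non-globin UMIs, which 170 late low-RNA and 514 deep cells reached and 9 late low-RNA cells did not, left Slfn14 in 85.3% and 0.389% of cells, respectively. Without thinning the share in the deep cells was 7.20%. Tmcc2 was in 90.6% and 3.31% of the thinned cells, and Xpo7 in 88.8% and 1.36%.

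The stretches before the RefSeq start sites of Slfn14, Tmcc2 and Trim58, the last of them no marker given for these cells, are printed because the genes were high in the same cells and because GATA1, the main erythroid transcription factor, binds GATA motifs. The 250 bases before a start are given 5′ to 3′ on the gene's strand (RefSeq, build GRCm38.p6), and capitals mark GATA with A or T before it and A or G after it, on either strand. Slfn14 is shown at chr11:83286727-83286976 on the minus strand, Trim58, a ubiquitin ligase of late erythroblasts, at chr11:58640215-58640464 on the plus strand, and the innermost of 3 Tmcc2 starts at chr1:132367949-132368198 on the minus strand.
Slfn14: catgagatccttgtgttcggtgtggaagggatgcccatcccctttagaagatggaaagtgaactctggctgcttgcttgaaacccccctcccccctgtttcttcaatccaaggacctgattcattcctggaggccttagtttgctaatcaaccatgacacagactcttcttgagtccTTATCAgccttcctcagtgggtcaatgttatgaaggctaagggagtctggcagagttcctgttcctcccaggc
Trim58: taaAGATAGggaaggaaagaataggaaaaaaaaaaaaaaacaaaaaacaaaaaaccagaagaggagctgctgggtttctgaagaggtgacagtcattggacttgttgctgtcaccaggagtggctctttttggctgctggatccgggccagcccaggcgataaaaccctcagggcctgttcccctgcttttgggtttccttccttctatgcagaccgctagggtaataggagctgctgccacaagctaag
Tmcc2: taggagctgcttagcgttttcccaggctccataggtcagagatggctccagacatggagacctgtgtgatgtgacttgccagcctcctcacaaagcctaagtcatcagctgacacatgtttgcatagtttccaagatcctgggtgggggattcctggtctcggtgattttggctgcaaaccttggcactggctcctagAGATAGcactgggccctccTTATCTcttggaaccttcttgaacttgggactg
The Slfn14 stretch held 1 match, in its 3′ part, the Trim58 stretch 1, at its far 5′ end, and the Tmcc2 stretch 2, while the stretches before the other Tmcc2 starts held 0. The Alas2 stretch, not printed, held 1, and Xpo7 had no entry in the table used. Such a match was present in 26.5% of the 32851 promoters of the table, and in 19.6% of the 1915 measured genes with an entry. It was present in 21.3% of the 498 genes at least 2-fold higher in the late low-RNA cells and in 19.8% of the 865 at least 2-fold lower. Of the genes with an entry among the 119 at least 16-fold higher, 28.7% had one, and of the 8 with an entry among the 10 of largest ratio, 4 did. Those sets were chosen by the ratio, so these shares are a description and were not tested. A match is a description of the letters and not a bound site.

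Levels were followed over cells ordered by globin share. Among cells under 10000 UMIs, Xpo7 stood at 6.19 CPM where globin was under 1%, 53.7 at 2.5 to 5%, 1370 at 5 to 8%, 3232 at 8 to 9% and 9574 at 10 to 11%, and between 4957 and 9203 in the bins above. Slfn14 and Tmcc2 were likewise below 100 CPM up to 5% globin and above 2000 CPM from 10% on. Among cells of 10000 UMIs or more, Xpo7 stayed between 3.52 and 11 CPM in every bin up to 50% globin. Alas2, in contrast, was higher in each successive bin of the deep cells, from 9.04 CPM under 0.5% globin to 636 at 15 to 50%. Klf1, an activator of globin and other erythroid genes, was 382 CPM in deep cells of 6 to 10% globin and 138 CPM (86.9 to 208) in the late low-RNA cells. Since the bins follow the values used to choose the cells, these levels are a description. The 7 deep cells of at least 50% globin had a pooled level of 2832 CPM of Xpo7. They gave 37 of the 129 Xpo7 UMIs of all deep globin-rich cells. Of these 37, 34 came from 1 cell, and the median of the 7 was 0. Only 1 of the 7 had at least 3 UMIs of the 3 genes. Their medians were 1645 non-globin UMIs and 363 genes, against 1465 and 496 in the late low-RNA cells, so globin took them past 10000 UMIs.

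**Figure D2:**
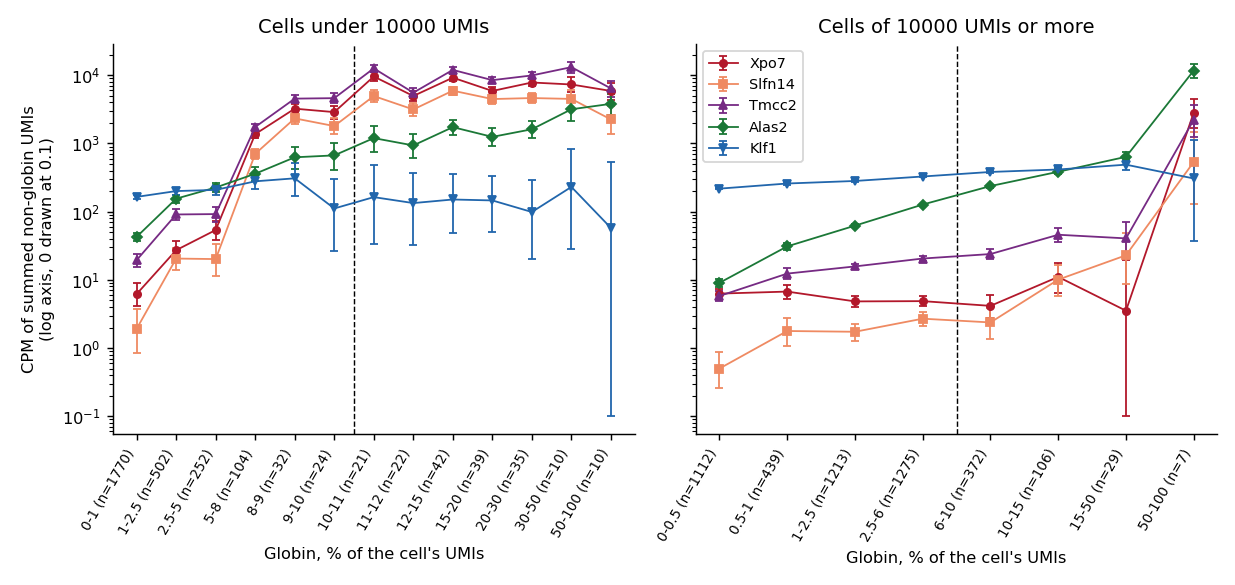
Level of 5 genes (CPM of summed non-globin UMIs, log axis, with exact Poisson 95% intervals) in cells binned by globin share, for cells under 10000 UMIs (left) and deeper cells (right), both below the Cxcl12 limit; dashed lines mark the 10% and 6% limits. On the left Xpo7, Slfn14 and Tmcc2 rise between 2.5 and 11% globin and stay above 2000 CPM from 10% on, while on the right they stay below 50 CPM up to 50% globin and Alas2 rises.

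Over all genes, 2397 had a mean of at least 50 CPM over the sets and were compared, with globin left out of the totals. Of these, 624 (26%) were at least 2-fold higher in the late low-RNA cells and 1055 (44%) at least 2-fold lower, with a median log2 ratio of -0.78. These percentages are the background against which the gene groups below are read. A gene could be compared through a high level in 1 of the sets alone, so the counts and medians of these groups are a description and support nothing about them. Without the 16 cells that had under 3 UMIs of Slfn14, Xpo7 and Tmcc2, the counts were 688 and 1159 (an alternative chosen after seeing the data). The largest ratios after Xpo7 (log2 ratio 9.91, interval 9.55 to 10.30) and Slfn14 (9.87, 9.42 to 10.35) were those of Tcp11l2 (9.60), Tmcc2 (8.32), Oasl2, an interferon-induced gene of the oligoadenylate synthetase family (8.21), and Gdf15, a secreted factor of stressed and maturing cells (8.12). Syt14, Fam220a, Calcrl and Sowaha completed the first 10, at 7.55 to 8.04. Oasl2 and Gdf15 rested on few cells: 45 UMIs in 16 cells and 37 UMIs in 11 cells, against 383 UMIs in 126 cells for Tcp11l2. Over the alternatives tried, the ratio of Xpo7 lay between 7.90, with cells thinned to 1000 non-globin UMIs, and 10.35, and it was 8.51 against deep cells held to the same 10% globin limit. The thinned ratios of Oasl2 and Gdf15, 3.77 and 3.33, are lower bounds. The thinned deep cells held no UMI of either gene, and a floor of 3 counts was used instead.

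The 10 genes that were furthest down were Ndufa9 of respiratory complex I, Acadl of fatty acid oxidation, Cs (citrate synthase), Mpc1 (the mitochondrial pyruvate carrier), Prelid1, which carries lipid between mitochondrial membranes, its relative Prelid3b, Ube2n, a ubiquitin-conjugating enzyme (log2 ratio -4.37), Cmpk1, a nucleotide kinase, Abracl and A430005L14Rik. Each had between 1 and 3 UMIs per lane on average in the late low-RNA cells, so the ratios are wide: Cs had a log2 ratio of -3.25 with an interval of -6.29 to -1.39. All 10 lay at or below 18.4 CPM, the level of 3 UMIs in the late low-RNA cells, so their order is not resolved at this depth. In all, 119 genes had a ratio of at least 16-fold higher and 2 of at least 16-fold lower, without regard to the interval. In the deep cells 3 UMIs were 0.35 CPM, so large rises could be resolved for more genes than large falls.

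Of 38 genes for enucleation and organelle clearance, 27 were compared and 4 had 0 UMIs in the late low-RNA cells. Of the 27, 19 were at least 2-fold higher and 3 at least 2-fold lower, with a median log2 ratio of 2.79, and 16 and 3 of 24 with a median of 2.52 once Slfn14, Xpo7 and Tmcc2 were set aside. Trim58, a ubiquitin ligase acting on the dynein motor, was at 438 CPM against 4.20 (log2 ratio 6.70). Calcoco1, an autophagy receptor, was at 6.52 and Ulk1, the kinase that starts autophagy, at 5.33. Bnip3l, the mitophagy receptor of reticulocytes, had 1323 CPM against 200 (2.73), and Map1lc3b and Gabarapl2, which coat autophagosomes, had log2 ratios of 2.10 and 2.27. Tent5c, a poly(A) polymerase, stood at 5.69, and Riok3 at 3.43. Rac2, Fundc2 and Epn1 were the 3 lower genes, at -1.54, -1.41 and -1.05. Rac1 and Diaph3, a GTPase and a formin of the cytoskeleton, lay between, at -0.92 and -0.98.

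Genes of the ubiquitin system stood on both sides. Of 35 genes, 17 were at least 2-fold higher and 9 at least 2-fold lower, with a median of 0.59. Among the higher genes were the ligases and conjugating enzymes Fbxo30 (2080 CPM against 24.1, log2 ratio 6.43), Ube2h (6.41), Ube2o, a hybrid enzyme that marks ribosomal proteins in reticulocytes (5.56), Fbxo34 (4.88), and Mkrn1 (3.59). Ranbp10 and Wdr26 of the CTLH ligase that works with Ube2h stood at 4.09 and 3.86, but Gid8 of the same complex stood at -1.82. Among the lower genes were the proteasome subunits Psmb4 at -1.59, Psmc3 at -1.53, Psmd1 at -1.45 and Psmb1 at -1.41. Whether ligases and proteasome subunits differed as groups was not tested, and Ube2n, a conjugating enzyme outside the list, was among the 10 lowest genes.

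Membrane and skeleton genes were higher in 16 of 31 and lower in 3, with a median of 1.19. Ypel4 was furthest up (1608 CPM against 20.7, log2 ratio 6.28), followed by Art4, which carries the Dombrock antigen (4.58), Epb41, protein 4.1 of the spectrin junction (3152 CPM against 147, 4.43), and Epb42, protein 4.2 (3.24). Slc4a1, the anion exchanger band 3, had 622 and 684 UMIs in the lanes and 4000 CPM against 886 (2.17). Sptb, which makes a spectrin chain, differed less, at 0.32. Rhd (0.02) and Cd24a (0.15), a surface antigen of erythroblasts, had nearly the same level in both sets. Lower were Aqp1, the water channel (-1.05), Icam4 (-1.46) and Tpm3 (-2.26).

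Heme synthesis did not move as a block, with 5 of 13 genes higher, 4 lower and a median of 0.45. Alas2 (2.48), Fech, which inserts iron into the ring (1936 CPM against 362, 2.42), Ppox (1.76) and Abcb10, a mitochondrial transporter (2.02), were among the higher genes. Alad, the enzyme after Alas2, was lower (-1.50), as were Snx3 (-1.71), Slc25a38 (-1.04) and Tmem14c, a mitochondrial porphyrin carrier (610 CPM against 2616, -2.10). Cpox stood at -0.91. Of 13 iron genes, 4 were higher and 5 lower (median -0.51): Ncoa4, the ferritin autophagy receptor, at 3.22, Slc25a37, the mitochondrial iron importer mitoferrin 1, at 2.13 and Tfrc, the transferrin receptor, at 1.38, against Fth1, the ferritin heavy chain, at -1.63 and Steap3, the endosomal iron reductase, at -2.53. The ratio of Steap3 rested on 2 and 3 UMIs in the lanes.

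Transcription factors also divided. Of 25, 13 were higher and 6 lower, with a median of 1.02. Mxd1, an antagonist of MYC (1437 CPM against 47.9, log2 ratio 4.91), Mafk (4.04), Tfdp2, a partner of E2F (3.76), Nfe2 (3.29), Bach1 (3.18), Foxo3 (2.75) and Sox6 (2.75) were higher. Lower were Klf1 at -1.50, Gata1 at -1.10 (interval -2.20 to -0.20), Gfi1b at -1.37 and Ikzf1 at -1.70. Tal1 (0.27) and Lmo2 (0.31), which form a complex with GATA1, differed little. Of 6 genes of survival and erythropoietin signalling that could be compared, 3 were higher and 1 lower: Bcl2l1, which makes BCL-XL, had 864 CPM against 12.7 (6.09), Cish 2.20 and Jak2 1.24, while Bax, a killer of the same family, had -1.41 and Epor, the receptor, 0.67. The median of this group was 0.95, and 0.06 with globin kept in the totals.

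Of 20 genes for carbonic anhydrases and antioxidants, 3 were higher and 11 lower (median -1.10). Cat, catalase, was at 3.86 and Gpx1, the glutathione peroxidase of red cells, at 1.04, with Car1 at -1.90, Txn1 at -1.79 and Blvra at -1.99. Among 7 genes for glycolysis and bisphosphoglycerate (median -0.52), Bpgm, which makes the compound that sets the oxygen affinity of hemoglobin, had 406 and 429 UMIs in the late low-RNA cells and 403 and 398 in the more numerous deep cells. Its level was 2558 CPM against 46.7 (log2 ratio 5.77). Slc16a1, a lactate carrier, was at 2.21, and Gapdh and Tpi1 at -2.41 and -2.06. Of the early progenitor genes only Srgn could be compared (-0.44), and 12 of 22, Kit and Gata2 among them, had 0 UMIs in the late low-RNA cells, which allows up to 18.4 CPM for each.

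In the ribosomal protein, respiratory chain, nucleolar and replication lists, most compared genes were at least 2-fold lower. Of 81 cytosolic ribosomal protein genes, 77 were at least 2-fold lower and 0 higher, with a median of -1.35. Rps2 stood at 1933 CPM against 7470 (log2 ratio -1.95), and these genes together made up 13.6% of non-globin UMIs against 34.5%, or 8.30% in the 163 late low-RNA cells with at least 3 UMIs of Slfn14, Xpo7 and Tmcc2. Of 33 nuclear genes of the respiratory chain, 30 were lower and 0 higher (median -1.61), with Ndufv1 at -2.86 and Uqcrc2 at -2.58. Nucleolar and translation genes had 14 of 19 lower and 1 higher (median -1.30), the exception being Pabpc1, the poly(A) binding protein, at 2.82. Replication genes had 27 of 29 lower and 0 higher, with a median of -1.87, the lowest of the groups, and Mcm4 of the replicative helicase at -3.06.

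Of 31 mitosis genes, 22 were lower and 0 higher, with a median of -1.27. Cdc20, which starts anaphase, had -2.74, Ccnb1 (cyclin B1) -2.13 and Cdk1 -1.84, while Mki67 stood at 1351 CPM against 1437 (-0.09), Cenpf at -0.10 and Ube2c at -0.15. Thinned to 1000 non-globin UMIs, 45.3% of the late low-RNA cells and 65.2% of the deep cells had a UMI of Mki67. Histone genes had 6 of 44 higher, 11 lower and a median of -0.60. H2afz, the variant H2A.Z, was at -1.80, and Hist3h2a, Hist4h4 and Hist2h3b were at 2.97, 2.48 and 1.61.

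The 12 genes of the mitochondrial genome that could be compared were all within 2-fold, with a median of -0.46, but a few cells carried much of that level. The median mitochondrial share of UMIs was 0.394% per late low-RNA cell against 2.75% per deep cell, and 18 of the 179 cells, those over 3%, held 70.2% of the set's mitochondrial UMIs. As a share of non-globin UMIs per cell, genes of the mitochondrial genome had medians of 0.457% and 3.00%, and the nuclear genes of the chain 0.407% and 1.84%. In the 151 cells under 3000 UMIs the median of the 12 genes was -1.26, that of ribosomal protein genes -2.21 and that of mitosis genes -2.08 (an alternative chosen after seeing the data).

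**Figure D3:**
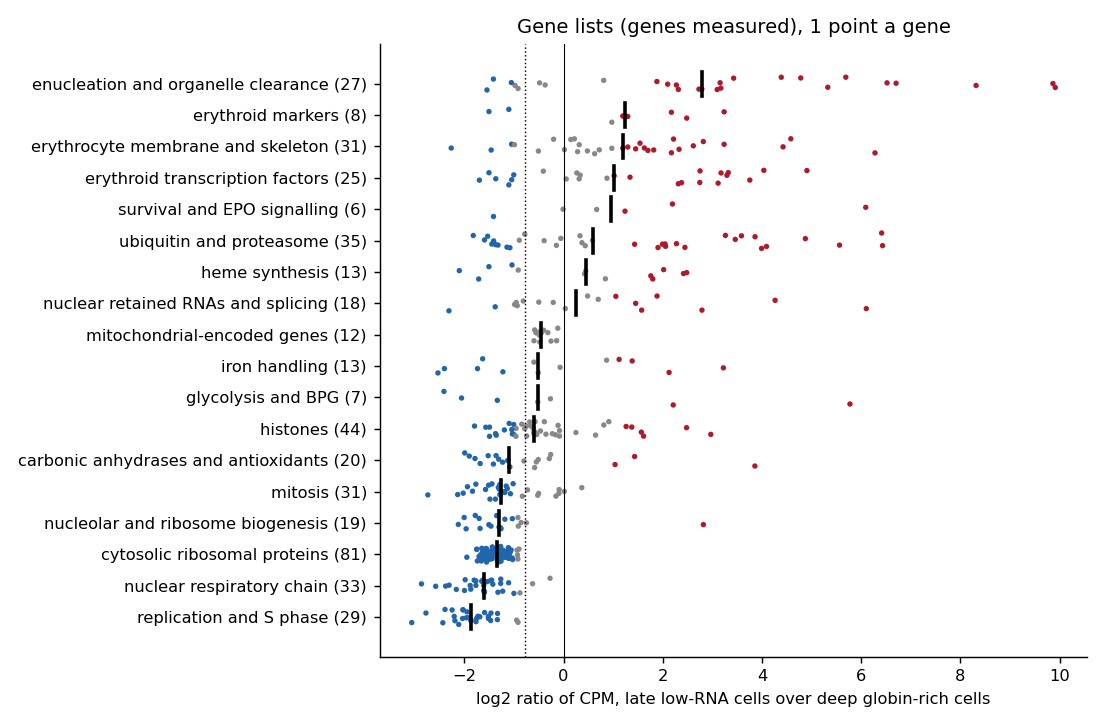
Each point is a compared gene of a list (number in brackets), placed by its log2 ratio of CPM, late low-RNA over deep globin-rich cells; red and blue mark at least 2-fold higher and lower, black bars are list medians and the dotted line is the median of all genes (-0.78). The enucleation list reaches from -1.54 to 9.91 around a median of 2.79, and the medians of replication, respiratory and ribosomal protein genes lie left of the dotted line.

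Nuclear RNAs were a large part of what the late low-RNA cells held. Malat1, a long noncoding RNA kept in nuclear speckles, had 15599 and 16024 UMIs in the lanes, at 96862 CPM against 5037 (log2 ratio 4.27). Neat1, the scaffold RNA of paraspeckles, had 3443 CPM against 50.1 (6.10). Gm42418, an annotated RNA that overlaps ribosomal RNA sequence and often collects its reads, had 74946 CPM against 20296 (1.88). Of the 18 nuclear and splicing genes compared, 7 were higher and 2 lower with a median of 0.26, so the group did not move as one. The median turned to -0.05 when each cell's own CPM were averaged. With globin kept in the totals, which shifts every ratio by the same amount, it was -0.01. Hnrnpa2b1 (-1.38) and Kcnq1ot1 (-2.31) were lower. Per cell, Malat1 took a median of 11.5% of non-globin UMIs in the late low-RNA cells and 0.453% in the deep cells, and the ribosomal protein genes 7.04% against 34.5%. At least 5% Malat1 together with under 15% ribosomal protein UMIs was found in 155 of the 179 late low-RNA cells and in 0 of the 514 deep cells (a count of 0 allows up to 3 cells, or 0.584%). These shares do not set the late low-RNA cells apart from the whole series, since stromal cells above the Cxcl12 limit had medians of 7.22% Malat1 and 5.82% ribosomal protein UMIs per cell.

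**Figure D4:**
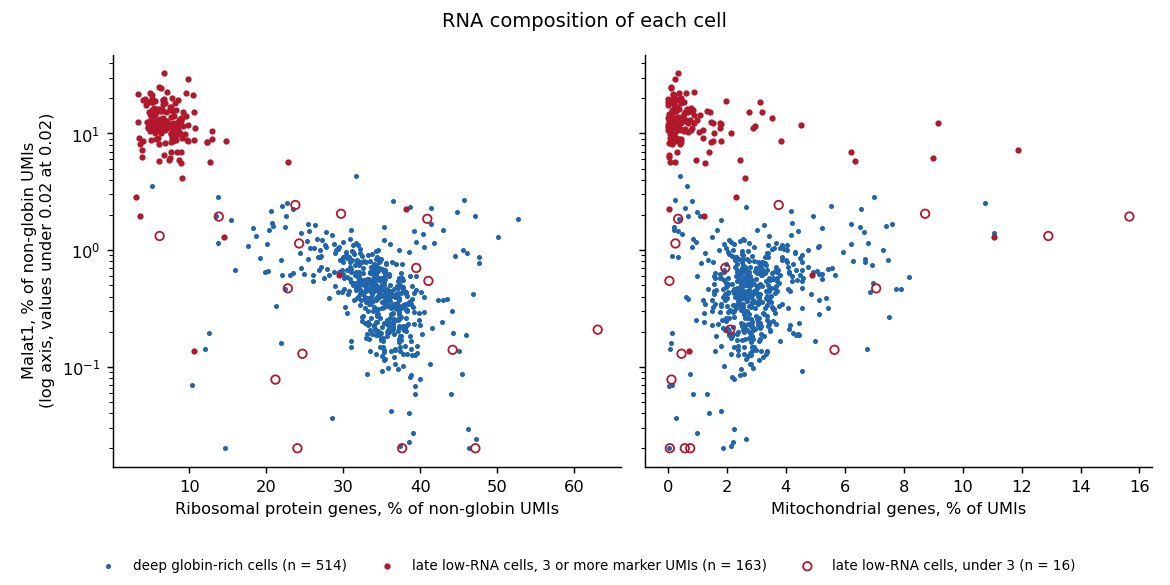
Each point is a cell, with the Malat1 share of non-globin UMIs on the log y axis against the ribosomal protein share of those UMIs (left) or the mitochondrial share of all UMIs (right); red points are the 163 late low-RNA cells with at least 3 UMIs of Slfn14, Xpo7 and Tmcc2, open circles the 16 with fewer and blue points the 514 deep globin-rich cells. The red points gather around 11.8% Malat1 and 6.79% ribosomal protein UMIs, and the open circles reach at most 2.44% Malat1.

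CPM is a share, and a late low-RNA cell held on average 1824 non-globin UMIs against 33347 in a deep cell, 18.3 times fewer. A gene with the same CPM therefore had far fewer UMIs per cell. In UMIs per cell, only 79 of the 2397 genes (3.30%) were higher in the late low-RNA cells by their counting interval, and 2259 were lower. Xpo7 had 13.2 UMIs per cell against 0.251, Slfn14 8.25 against 0.161, Tmcc2 17.5 against 1.00, and Tcp11l2 2.14 against 0.0506. Fbxo30 (3.79 against 0.804), Bpgm (4.67 against 1.56), Neat1 (6.28 against 1.67), Bcl2l1 (1.58 against 0.422) and Trim58 (0.799 against 0.140) also had more. Malat1 had about as many, 177 against 168 per cell. Alas2 and Slc4a1, which were higher in CPM, had fewer UMIs per cell, 2.91 against 9.52 and 7.30 against 29.6. Fewer RNA molecules in the cell and poorer capture of them cannot be told apart here. Counted per 1000 globin UMIs, Slfn14 stood at 13.8 in the late low-RNA cells, 0.0487 in the deep cells and 1.08 in stromal cells, a type that should make no globin. Alas2 stood at 4.89, 2.87 and 3.65, and Klf1 at 0.422, 3.93 and 11.5.

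**Figure D5:**
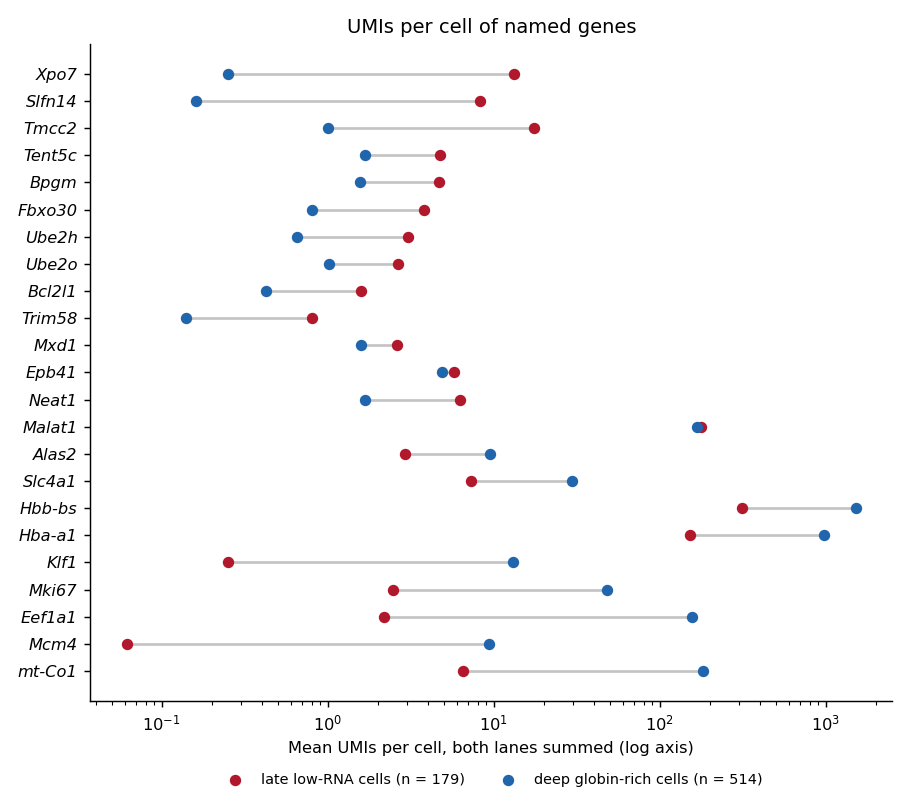
Mean UMIs per cell over both lanes (log axis) of named genes in the 179 late low-RNA cells (red) and the 514 deep globin-rich cells (blue). Genes in the upper rows, such as Xpo7 (13.2 against 0.251), have more UMIs in the cells with less RNA, Malat1 about as many, and those in the lower rows, such as Mcm4 (0.0615 against 9.38), fewer.

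Globin was 596 UMIs per late low-RNA cell and 3318 per deep cell, 5.57 times fewer. The limits on UMI number and globin share set this difference in part. The 10 late low-RNA cells of at least 50% globin held 19191 of the set's 53302 globin UMIs (mean of the lanes), so they weigh on pooled globin values. The globin RNAs also differed in make-up, a measure that the selection did not use. Hbb-bs, the more abundant adult beta chain, made up 79.1% (78.7 to 79.6) of beta-globin UMIs in the late low-RNA cells and 70.4% (70.3 to 70.5) in the deep cells, and per cell the medians were 77.0% and 70.4%. The share tended to be higher in bins of more globin, though not at every step: 72.9% at 10 to 11%, 78.4% at 15 to 20%, 77.1% at 20 to 30% and 81.8% at 50% or more among the late low-RNA cells, and 66.6% at 2.5 to 6% and 71.3% at 10 to 15% among deep cells. Alpha chains were 33.4% and 34.9% of globin UMIs. Hba-a1 was 76.4% of the alpha UMIs against 84.5%, but Hba-a1 and Hba-a2 are near-identical copies, so how reads were split between them is uncertain, and Hbb-bs and Hbb-bt are close paralogs as well.

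The set was not uniform. In 163 of the 179 cells there were at least 3 UMIs of Slfn14, Xpo7 and Tmcc2, with a median of 40 per cell, and 154 cells had a UMI of each (5 of the 514 deep cells did). The other 16 had at most 1. Their median was 5690 UMIs and 993 genes, with 0.507% Malat1 and 27.2% ribosomal protein UMIs, shares nearer to those of the deep cells than to those of the other 163. Alas2 was at 728 CPM (471 to 1075) in them and Klf1 at 204 (82.0 to 420). They were 8.94% of the cells and held 21.0% of the set's non-globin UMIs. By depth, 53 of 54 cells of 1000 to 1500 UMIs, 55 of 56 of 1500 to 2000 and 38 of 39 of 2000 to 3000 had at least 3 such UMIs, against 7 of 9 of 3000 to 5000 and 8 of 19 above that. The 10 cells with at least 50% globin had a median of 5377.5 UMIs but 483.5 genes, with 3.82% Malat1, and 7 of them had at least 3 such UMIs.

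Cells with many UMIs of the 3 genes lay outside the rule as well. Of 277 kept cells with at least 10 UMIs of the 3 genes, 157 were late low-RNA cells, 74 were low-depth cells of 5 to 10% globin and 46 were others. The 82 low-depth cells of 5 to 10% globin with at least 3 such UMIs had a median of 1511 UMIs, 13.2% Malat1 and 7.19% ribosomal protein UMIs, and 27.4 UMIs of the 3 genes per 1000 non-globin UMIs, where the 163 late low-RNA cells had 27.4 as well.

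Markers of other cell types were counted as well. Of 6 neutrophil or monocyte markers 6 had 0 UMIs in the late low-RNA cells, of 6 macrophage markers 5, of 6 endothelial markers 5, of 6 T or NK cell markers 5, of 6 Sca-1 fibroblast markers 4 and of 6 megakaryocyte markers 3. Those at 0 among defining genes were S100a8, Lyz2, Csf1r, Pecam1, Kdr, Cd163 and Pdgfra. The summed level of these 6 lists ranged from 0 to 85.8 CPM in the late low-RNA cells and from 0.292 to 32.6 in the deep cells. The 6 LEPR+ stromal markers were all detected and summed to 211 CPM against 41.1 in deep and 25572 in stromal cells. Cxcl12, one of them, was at 172, 26.1 and 18687 CPM. A limit on Cxcl12 defined all of these sets, so its levels and the sum that holds it are set in part by the selection. The 6 plasma or B cell markers, with 1 at 0, summed to 1155 CPM against 80.0, nearly all of it Igkc, the kappa light chain, at 1041 against 72.2. In UMIs per cell Igkc was 1.90 against 2.41 and Cxcl12 0.313 against 0.872, and a UMI of Igkc was found in 52.0% of late low-RNA, 76.3% of deep and 61.4% of stromal cells. The part of RNA from other cells in the levels given here was not tested. A doublet caller marked 4 late low-RNA and 5 deep cells, and without them 626 genes were at least 2-fold higher and 1069 lower.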

How the data were processed

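Unique molecular identifier (UMI) counts per gene and barcode were measured by 10x 3′ single-cell RNA sequencing. The authors made the deposited counts with Cell Ranger against mm10 (the file header names software version 3.0.2 and the study's methods another version, and which of them made the counts is not settled), with no normalization. Both lanes hold the same cells, so their counts were summed per barcode. Kept cells had at least 200 genes and at most 20% mitochondrial UMIs. CPM were scaled to summed UMIs with globin left out. A gene was compared when the mean CPM of both sets was at least 50, and called at a 2-fold ratio. With 1 sample no test was possible. The 95% intervals are exact Poisson, conditional binomial or Clopper-Pearson intervals on the mean of the lanes, and they cover counting error only. The scripts were tested on simulated data.

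The members, markers and gene lists were chosen with earlier results of these data known. Genes were named as the 10 with the largest ratio each way, the 5 with the largest ratio of UMIs per cell, the markers, up to 4 of each list by size of ratio, and list members described as a pair or complex. Other list members were named after their values were seen, and so were the lists under the other observations. Where a symbol has more than 1 identifier, as Fam220a does, the one with the most UMIs was used. Doublets were kept. Scrublet, run per lane with 8% expected, called 194 and 192 cells. Coordinates and promoter stretches are from GRCm38, and 32158 of 32285 identifiers were in the GENCODE M21 annotation. Ahsp, Eraf, Setd8 and Fam132b were not analysed here. Python 3.11.15, numpy 2.4.6, scipy 1.17.1, pandas 2.3.3 and scanpy 1.11.5 were used.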

Additional observations from a re-analysis of the deposited data

How the results depend on the processing

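Of 18 alternatives, 3 of them chosen after seeing the data, the 3 that change the filter give counts only. Under the other 15, the 3 added ones included, 100 named genes gave 1500 values and the lists 373 medians, and 0 of those at least 2-fold higher or lower as reported changed sign. Smaller values did. Srgn, the 1 early progenitor gene compared, turned from -0.44 to 0.02 with each cell's own CPM averaged and to 0.15 with thinned cells. The median of the nuclear RNAs turned from 0.26 to -0.05 with each cell's own CPM averaged. Globin kept in the totals, which shifts every ratio by the same amount, took that median to -0.01. Requiring 500 genes per cell left 88 of the 179 late low-RNA cells, and a globin limit of 15% left 94. The filter on low values moved the counts of genes past 2-fold: a minimum of 20 CPM gave 1823 lower genes, a minimum of 200 CPM gave 269 higher and 311 lower, and no filter gave 1952 higher and 2852 lower, many on few UMIs. With either lane alone, at 5000 UMIs as the limit since a lane holds about that part of the depth, 176 to 177 cells were found, with 615 to 626 genes higher and 1034 to 1052 lower. Globin kept in the totals gave 496 higher and 1093 lower, and leaving Malat1 and Gm42418 out of the totals gave 713 and 906, with a median over all genes of -0.50 in place of -0.78. No paired analysis was possible because there was 1 group of 1 pooled sample. Depth limited low genes: 3 UMIs over all late low-RNA cells are 18.4 CPM.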

Other observations

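The gene groups below were chosen after their values were seen, and a member could be compared through a high level in the late low-RNA cells alone, so their counts are a description and support nothing about the groups. Of 26 genes that act in leaving the cell cycle, 19 reached the level for comparison and 3 had 0 UMIs in the late low-RNA cells. Of the 19, 13 were at least 2-fold higher and 1 lower, with a median log2 ratio of 4.21. Cdkn1b, the cyclin-dependent kinase inhibitor p27, had 1654 CPM against 46.7 (5.15) and a UMI in 70.6% of late low-RNA and 4.47% of deep cells thinned to 1000 non-globin UMIs. Sertad3 stood at 5.82, Ezh1, a histone methyltransferase of resting cells, at 5.27 and Trp53inp1 at 5.20, while Ccnd3, the cyclin D of erythroblasts, stood at -2.33 and Rb1 at -0.36.

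Of 34 interferon-stimulated genes, 10 reached the level for comparison, of which 9 were higher and 0 lower, and 11 had 0 UMIs in the late low-RNA cells. Rsad2, which makes the antiviral enzyme viperin, had 3960 CPM against 28.5 (7.12) and a UMI in 85.5% of the late low-RNA cells. Irgm2 (5.75) and Trim56 (4.67) were also higher, and Ifi27 stood at -0.37. Isg15 had 1271 CPM against 86.8, and 68 of its 415 UMIs were in 1 cell. Of 18 genes of the stress response through eIF2 alpha, 10 were compared and 2 had 0 UMIs in the late low-RNA cells. Of the 10, 6 were higher and 2 lower (median 1.85, and 0.84 to 2.90 over the alternatives). Ppp1r15a, which restores eIF2 alpha, stood at 4.38, Gtpbp2 at 4.46 and Eif2ak1, the heme-regulated kinase of eIF2 alpha, at 3.19, with Atf4 at 0.16, Asns at -1.31 and Eif2s1, eIF2 alpha itself, at -1.59.

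The barcode that the mitochondrial limit removed had 1580 UMIs, 10% of them globin and 21.9% mitochondrial.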
